A study of Mus musculus with 6 samples.

Results

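The genes of DNA replication licensing and of the replication fork were examined in Ba/F3 cells that carry the R98S mutation of the ribosomal protein RPL10. The group held 42 genes, taken from the expression table by symbol, out of 41255 listed and 11550 tested genes, and all 42 were expressed well enough to be tested. Ba/F3 is a mouse lymphoid line that needs interleukin-3 to grow. The 6 cultures were clonal, each started from a single cell that had received a retroviral copy of the human RPL10 cDNA, wild type in the 3 WT clones (28, 29 and 36) and with arginine 98 replaced by serine in the 3 R98S clones (11, 13 and 35). A short hairpin RNA against the mouse Rpl10 gene was present in all 6, and all were exposed to cycloheximide, which stalls translating ribosomes, just before RNA isolation. The study selected clones for a strong knockdown, so each culture stands for 1 clone, and the WT clones are engineered cells too. Polyadenylated RNA gave 1 strand-specific library per clone.

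Replication begins at origins that are licensed before S phase. The origin recognition complex (ORC) marks the DNA, and CDC6 and CDT1 help it to load the MCM2-7 ring, the motor of the replicative helicase, while geminin holds CDT1 back once S phase has begun. The kinase CDC7 with its activator DBF4, together with MCM10, CDC45 and the GINS complex, then turns the loaded ring into an active helicase. Polymerase alpha with primase starts each strand, polymerases epsilon and delta extend the strands on the sliding clamp PCNA, and FEN1 and DNA ligase I join the lagging strand fragments. Much of this set is transcribed under the control of E2F factors and is most active in dividing cells.

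The libraries held between 21786776 and 24204991 reads assigned to genes, and the 42 genes took between 0.417% and 0.565% of them. Rpl10, the target of the hairpin, had a log2 fold change of -0.066 between R98S and WT cells (SE 0.23, adjusted p = 0.871 in limma), which as all clones carried the hairpin does not check the labels. All 3 interleukin-3 receptor genes were expressed, with summed normalized counts of 87944 to 103978 in WT and 130711 to 154305 in R98S clones. Of 11 markers of B cell precursors, 3 reached a normalized count of 10 in some library (Cd79a, Cd79b and Ebf1), while Pax5, Igll1, Rag1 and Dntt stayed at 2.15 or less, so the lymphoid label rested on few of its defining genes. Their sum was 1294 to 1409 in WT and 1645 to 1964 in R98S clones. Summed counts of the pan-blood markers were 11911 to 16900 in WT and 6795 to 8684 in R98S clones, with Ptprc lower in R98S cells and Kit at 1.02 or less. The T cell markers summed to 49.2 to 67.7 and 149.9 to 178.3, the myeloid markers to 35.8 to 64.0 and 7.5 to 9.3, the mast cell markers to 171.9 to 251.2 and 71.4 to 529.2, the erythroid markers to 202.0 to 680.5 and 365.4 to 580.8, and the fibroblast markers to 2.0 to 17.2 and 8.3 to 15.3. Fcer1a, Hbb-bt and Dcn were at 0 in all clones. The part of these markers in the results was not tested.

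To describe how the replication genes differed between the genotypes, normalized read counts of the 3 R98S clones were compared with those of the 3 WT clones by limma, with adjustment over all genes tested and an adjusted p under 0.1 as the call. Among the 42 genes, 8 were called higher and 2 called lower in the mutant. The higher genes were Mcm3 and Mcm6 of the helicase ring, Orc1 and Orc2 of the origin recognition complex, Mcm10 and Gins1 of the firing step, Pold3 of polymerase delta and Rfc2 of the clamp loader. The lower genes were Orc6 and Gins3. The called share, 10 of 42 (23.8%), lay next to the 23.9% called over all genes tested, where 10.7% were called higher and 13.1% lower. In all, 30 of the 42 log2 fold changes were above 0, beside 5667 of all 11550 genes tested. Their median was 0.18, compared with -0.011 over all genes. The R98S mean lay at a median of 0.25 relative to the mean of WT clones 28 and 29, but of -0.051 relative to WT clone 36. For 12 genes the genotypes were fully apart. In 10 of them every R98S clone lay above every WT clone, as in 18.1% of all genes, and in 2 every R98S clone lay below, as in 19.2%. The differences were modest in size, between 0.38 and 0.78 on the log2 scale for the higher genes. Counts per cell were not measured, so a different share of cells in S phase cannot be told apart from a different amount of RNA of these genes per cell, in either direction.

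**Figure D1:**
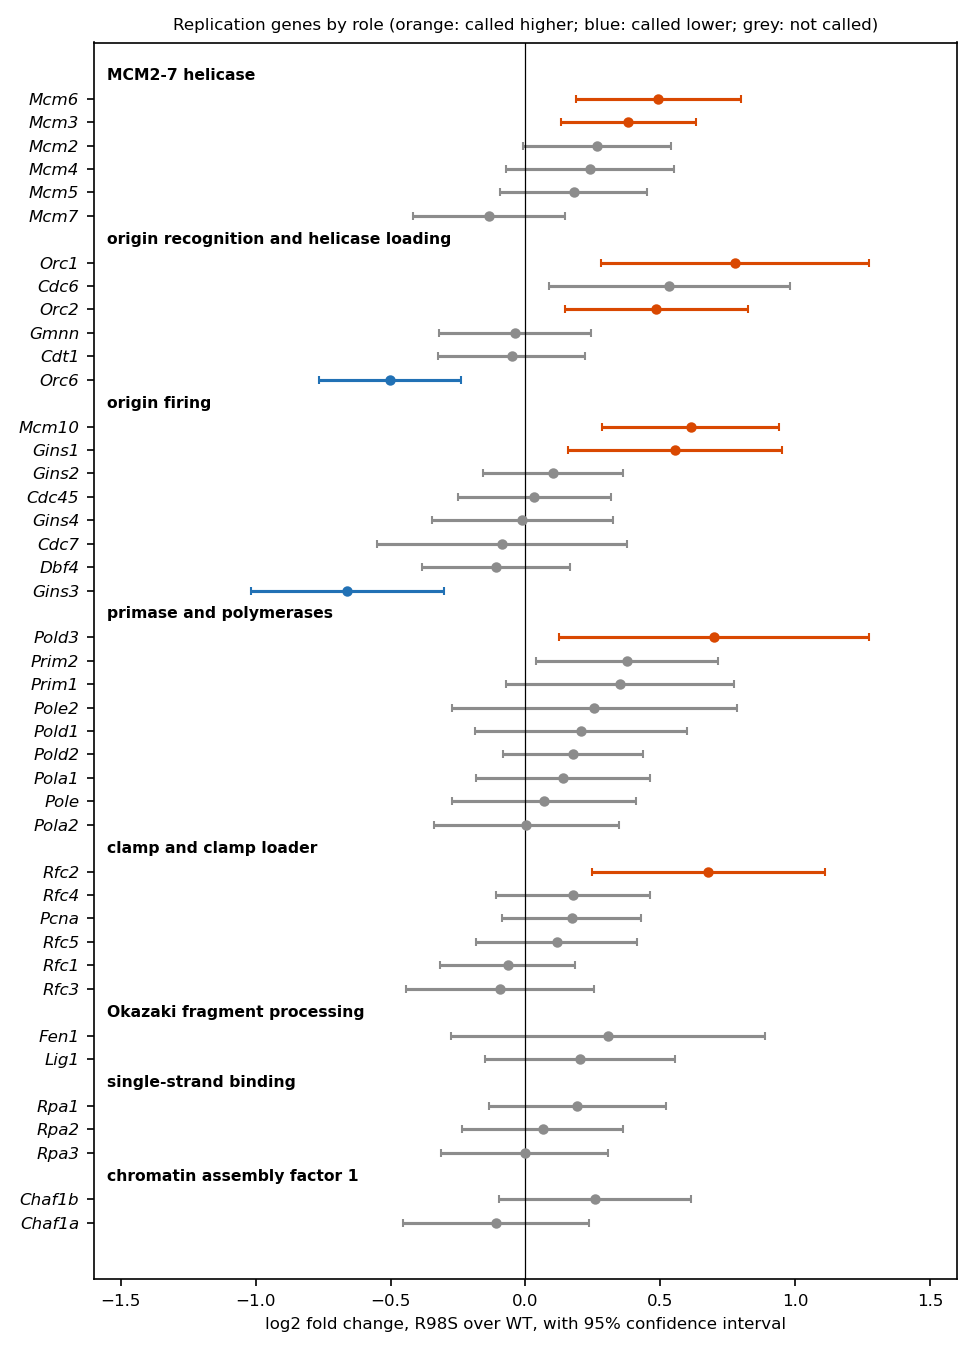
Log2 fold change of each of the 42 replication genes, R98S over WT on the log2(normalized count + 1) scale, with 95% confidence intervals from limma (3 clones per group), ordered by role. Orange marks the 8 genes called higher, blue the 2 called lower and grey the 32 not called; every grey interval except those of Cdc6 and Prim2 spans 0.

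The promoters of these genes were searched for the letters of the E2F site (TTTCGCGC or TTTGGCGC), of the CCAAT box (CCAAT) and of the cell cycle genes homology region, CHR (TTTGAA or TTCGAA), on both strands of the window from 250 bases before to 50 bases after the start in RefSeq (build GRCm38.p6). The E2F words share GCGC and can overlap on opposite strands. A window was given for 34 of the 42 genes. E2F letters were in 10 of the 34 (29.4%) and in 251 of 27025 genes with a window (0.929%). CCAAT was in 21 of the 34 (61.8%) and in 41.1% of all genes, and CHR letters in 9 (26.5%) and in 21.7%. Of the 8 called genes with a window, 3 held E2F letters (Mcm3, Mcm6 and Orc1), as did 7 of the 26 genes not called. A match describes the letters only. To show how differently the promoters were built, 115 bases are printed 5′ to 3′ for Mcm6 and Orc1, called higher, for Mcm5, which was not called, and for Orc6, called lower, with E2F and CCAAT letters in capitals. They lie at chr1:128359711-128359825, minus strand, chr4:108579334-108579448, plus strand, chr8:75109344-75109458, plus strand and chr8:85299512-85299626, plus strand.
Mcm6: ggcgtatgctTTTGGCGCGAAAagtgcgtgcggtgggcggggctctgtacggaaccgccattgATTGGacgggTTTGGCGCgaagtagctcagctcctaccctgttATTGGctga
Orc1: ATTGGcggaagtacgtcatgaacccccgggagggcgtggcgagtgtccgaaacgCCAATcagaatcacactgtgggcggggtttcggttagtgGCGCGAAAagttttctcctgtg
Mcm5: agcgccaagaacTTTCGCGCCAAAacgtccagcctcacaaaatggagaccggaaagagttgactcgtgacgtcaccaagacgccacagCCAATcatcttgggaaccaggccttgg
Orc6: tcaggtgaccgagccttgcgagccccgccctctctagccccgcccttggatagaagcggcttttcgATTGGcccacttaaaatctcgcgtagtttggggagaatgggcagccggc
In Mcm6 and Mcm5 the first capitals are a pair of E2F words that overlap on opposite strands, and Orc6 shows CCAAT letters alone.

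The MCM2-7 ring unwinds DNA as a hexamer of 6 related proteins. Mcm6 (chromosome 1, 128331590 to 128359664, minus strand, 16 exons), the ring subunit with the most reads per kilobase of mRNA, had normalized counts of 7415, 7609 and 8440 in WT clones 28, 29 and 36. The counts were 13040, 10591 and 9613 in R98S clones 11, 13 and 35. Every R98S clone lay above every WT clone, with R98S clone 11 the highest. Mean counts of Mcm6 were 7821 ± 545 and 11082 ± 1765 (WT and R98S, SD, n = 3), and the log2 fold change was 0.49 (SE 0.13, adjusted p = 0.0431 in limma). Mcm3 (chromosome 1, 20802968 to 20820312, minus strand) had 7616, 7509 and 8968 in the WT clones in the same order and 10720, 10744 and 9850 in the R98S clones. Its groups were also apart, and means were 8031 ± 813 and 10438 ± 509 (log2 fold change 0.38, SE 0.11, adjusted p = 0.0513 in limma). Mcm2, Mcm4 and Mcm5 had log2 fold changes of 0.26, 0.24 and 0.18 and Mcm7 of -0.13, none of them called. On the opposite strand Mcm7 shares 321 exon bases with Ap4m1, which was called lower (ratio 0.694). It shares 64 with Cops6, which was not called (ratio 1.065). Whether counting used the strand was not stated. WT clone 36 reached 9038 counts of Mcm5 and thus lay within the R98S range of 8427 to 9081, whereas WT clones 28 and 29 had 7316 and 7110.

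Per kilobase of mRNA, the 6 subunits were present at levels of the same order. In WT cells they ranged from 1503 (Mcm2) to 2688 (Mcm6) normalized counts per kilobase, a spread of 1.79 times, and in R98S cells from 1761 (Mcm7) to 3808 (Mcm6), a spread of 2.16 times. Mcm6 and Mcm3 were the highest of the ring in both genotypes, at 3808 and 3444 per kilobase in R98S cells. These levels depend on which transcript gives the length.

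**Figure D2:**
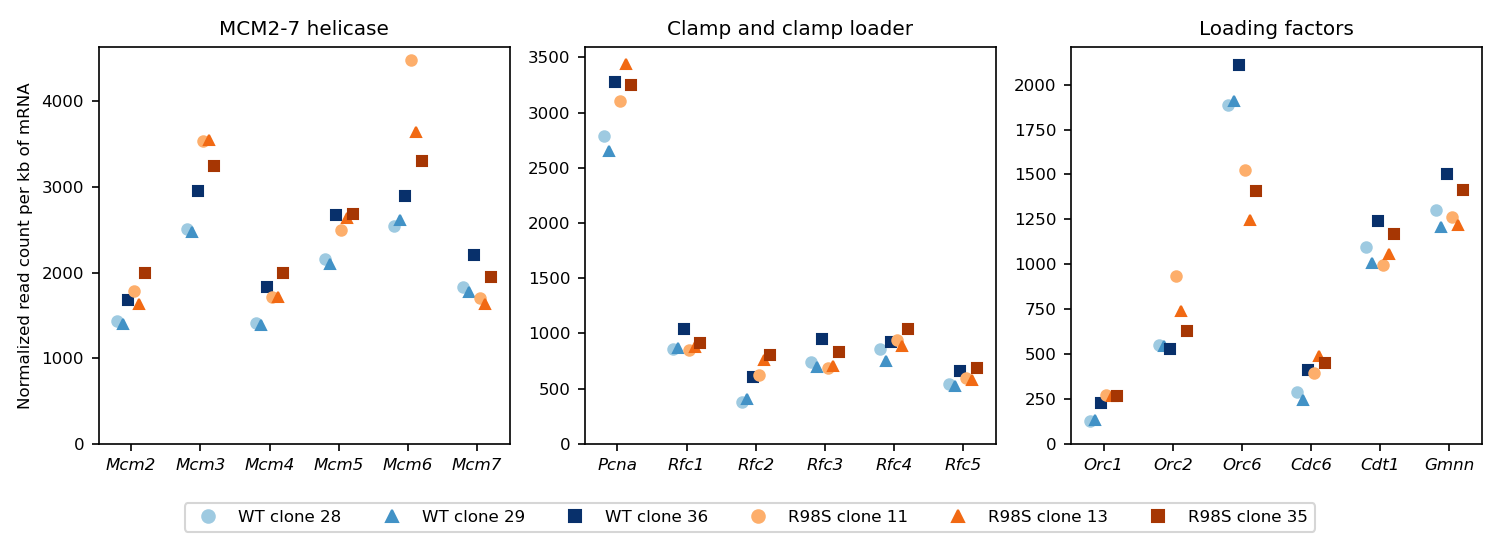
Normalized read counts per kilobase of mRNA in each of the 6 clones (blue, WT; orange to brown, R98S) for the MCM2-7 ring, the clamp with its loader, and the loading factors. The means of the ring lie between 1503 and 3808 per kilobase, and Pcna stands above the 5 loader subunits.

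Leaving out a clone lowered the number of calls over all genes in most cases, from 23.9% of the genes tested to 11.5%, 12.6% and 21.8% for omission of WT clones 28, 29 and 36 and to 13.7% and 17.4% for R98S clones 11 and 35, and raised it to 27.9% for R98S clone 13. Mcm6 lost its call without WT clone 28 (log2 fold change 0.46, adjusted p = 0.15), WT clone 29 (0.47, 0.128) or R98S clone 11 (0.37, 0.112 in limma). Mcm3 lost it without the same clones, with log2 fold changes of 0.35, 0.34 and 0.36 beside 0.38 with all clones (adjusted p = 0.192, 0.176 and 0.137 in limma). The 30 tested genes nearest to Mcm3 had a median log2 fold change of 0.11. When the median deviation of these neighbours was subtracted from Mcm3 separately in each library, its log2 fold change was 0.17 (adjusted p = 0.376 in limma), which need not equal the difference of the fold changes. With the shift of neighbours removed, Mcm2, Mcm4 and Mcm5 were called higher beside Mcm6, at 0.39, 0.36 and 0.49 (adjusted p = 0.0505, 0.0656 and 0.0481 in limma, and up to 0.404, 0.549 and 0.659 over the other alternatives).

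The factors that bind origins and load the ring moved in both directions. Orc1 (chromosome 4, 108579423 to 108614833, plus strand), the large ATPase subunit of ORC, had 382.0, 403.0 and 678.5 normalized counts in the WT clones (28, 29, 36) compared with 811.6, 805.3 and 804.9 in the R98S clones (11, 13, 35). The R98S clones were nearly equal, and WT clone 36 lay closer to them than to the other WT clones. Means were 487.8 ± 165.5 and 807.2 ± 3.75 (SD, n = 3), and the log2 fold change was 0.78 (SE 0.22, adjusted p = 0.0473 in limma). This was the largest of the 42 genes in limma, whereas Pold3 came first in edgeR (0.78, with Orc1 at 0.74) and in DESeq2 (0.78, with Orc1 at 0.73). Orc2 (chromosome 1, 58462771 to 58505109, minus strand), another core subunit, had 1967, 1941 and 1878 in the WT clones and 3335, 2632 and 2244 in the R98S clones. The R98S clones were all higher but spread widely, at 2737 ± 553 compared with 1929 ± 45.6 in WT (log2 fold change 0.49, SE 0.15, adjusted p = 0.0614 in limma). Orc6 (chromosome 8, 85299632 to 85308278, plus strand), the smallest ORC subunit, went the other way, with 2426, 2457 and 2716 in the WT clones and 1966, 1601 and 1811 in the R98S clones. Its groups were apart, and means were 2533 ± 159 and 1793 ± 183 (log2 fold change -0.50, SE 0.11, adjusted p = 0.0256 in limma).

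Of the loading factors proper, Cdt1 (chromosome 8, 122568015 to 122573554, plus strand) had the highest counts, with 2404, 2203 and 2719 in the WT and 2185, 2311 and 2563 in the R98S clones. These ranges overlapped almost fully (log2 fold change -0.052, SE 0.12, adjusted p = 0.798 in limma). Its inhibitor geminin, encoded by Gmnn, had a log2 fold change of -0.038 (adjusted p = 0.859 in limma). Cdc6, the ATPase that works with ORC, fell just short of the call at 0.53 (SE 0.20, adjusted p = 0.103 in limma), with 738.3, 622.2 and 1049 counts in WT and 1016, 1245 and 1157 in R98S clones. Only WT clone 36 reached into the R98S range. Per kilobase of mRNA, WT cells had 161.9 of Orc1, 541.6 of Orc2 and 1968 of Orc6, and R98S cells had 267.8, 768.6 and 1393, so the difference in level between the subunits was smaller in R98S cells.

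The call of Orc1 was lost without WT clone 28 (adjusted p = 0.153), WT clone 29 (0.142), R98S clone 11 (0.127) or R98S clone 35 (0.112), although its log2 fold change stayed at 0.63 or more (limma). Orc2 lost its call without WT clone 28 (adjusted p = 0.152), 29 (0.145) or 36 (0.119), at log2 fold changes of 0.50, 0.49 and 0.47 that hardly differed from 0.49 with all clones (limma). Its log2 fold change was lower without R98S clone 11 (0.33, adjusted p = 0.138) and with the shift of neighbours removed (0.23, adjusted p = 0.184 in limma), and the call was lost there too. Orc2 shares 1150 exon bases with Nif3l1 on the opposite strand, which was itself called higher (ratio 1.59), and whether counting used the strand was not stated. Orc6 shares 171 bases with Vps35 (ratio 0.686) in the same way, and Orc1 shares 376 with Gm12743.

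**Figure D3:**
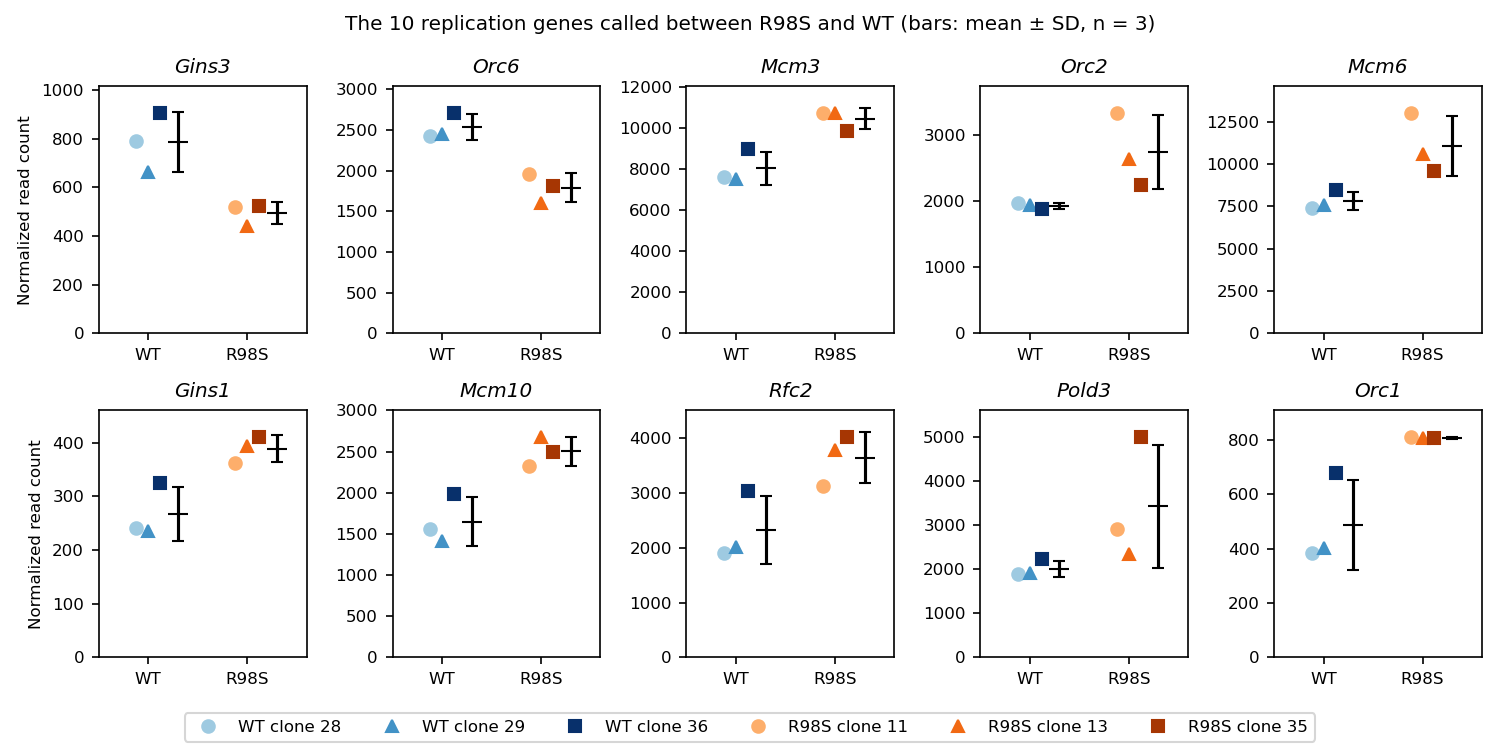
Normalized read counts of the 10 called replication genes in each clone, with mean ± SD of the 3 clones per genotype beside the points; each panel has its own axis from 0. WT clone 36 (dark blue square) is the highest WT clone in every panel except Orc2, and R98S clone 35 stands apart in Pold3.

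Among the genes that fire origins, Mcm10, Gins1 and Gins3 were called. Mcm10 (chromosome 2, 4989714 to 5012791, minus strand), which is needed to open the double helix at the activated helicase, had 1558, 1409 and 1982 counts in the WT clones, compared with 2324, 2682 and 2497 in the R98S clones. The groups were apart, at 1649 ± 297 and 2501 ± 179 on average (SD, n = 3), and the log2 fold change was 0.61 (SE 0.14, adjusted p = 0.0275 in limma). The call of Mcm10 was lost without WT clone 28 alone among the clones (0.58, adjusted p = 0.101 in limma). Dbf4 (chromosome 5, 8396973 to 8422716, minus strand), with the highest counts of the firing genes, had 3442, 3387 and 3654 in the WT and 3365, 2789 and 3622 in the R98S clones. These overlapped (log2 fold change -0.11, SE 0.12, adjusted p = 0.572 in limma), as did the values of its kinase partner Cdc7 (-0.088) and of Cdc45 (0.033), the helicase cofactor.

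GINS is a complex of 4 subunits, and its genes did not move together. Gins1 (chromosome 2, 150905400 to 150931280, plus strand) had 241.7, 235.4 and 324.3 normalized counts in the WT clones and 362.2, 394.0 and 411.7 in the R98S clones. All R98S clones were higher, with means of 267.1 ± 49.6 and 389.3 ± 25.1 (SD, n = 3), and the log2 fold change was 0.56 (SE 0.17, adjusted p = 0.0651 in limma). Gins3 (chromosome 8, 95633453 to 95645060, plus strand) had 790.6, 662.0 and 906.7 in the WT clones and 519.8, 440.9 and 522.7 in the R98S clones. All R98S clones were lower, with means of 786.4 ± 122.4 and 494.5 ± 46.4 (log2 fold change -0.66, SE 0.16, adjusted p = 0.0283 in limma), and this was the lowest log2 fold change of the 42 genes in limma. Gins2 and Gins4 had log2 fold changes of 0.10 and -0.011 and were not called, although every R98S clone was above every WT clone for Gins2. Gins2 shares 2758 exon bases with Gse1 on the opposite strand. The call of Gins1 was lost without WT clone 28 (log2 fold change 0.49, adjusted p = 0.21) or 29 (0.47, 0.201) or R98S clone 11 (0.61, 0.119) or 35 (0.51, 0.153), and that of Gins3 without WT clone 28 (-0.65, adjusted p = 0.101 in limma). These log2 fold changes stayed close to those with all clones.

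Both genes called lower, Orc6 and Gins3, lie on chromosome 8, together with Cdt1, Gins2, Gins4 and Mcm5. Over the 645 tested genes of that chromosome the log2 fold change had a median of -0.24, the lowest of the autosomes, and 27.4% of them were called lower. The genes called higher lie on chromosomes 1 (Mcm3, Mcm6 and Orc2), 2 (Mcm10 and Gins1), 4 (Orc1), 5 (Rfc2) and 7 (Pold3). In that order, the chromosome medians were 0.18, 0.086, 0.15, -0.071 and 0.13. The shares called higher were 19.6%, 12.1%, 23.2%, 7.13% and 19.2%, beside 10.7% of all genes tested. The 30 tested genes nearest to Orc6 had a median of -0.45 and those nearest to Gins3 one of -0.61. After the median shift of these neighbours had been removed in each library, Orc6 stood at -0.070 (adjusted p = 0.746 in limma) and Gins3 at -0.11 (adjusted p = 0.674 in limma), so both were short of the call. Their adjusted p ranged from 0.00292 to 0.746 and from 0.00298 to 0.674 over all alternatives. Mcm5, whose neighbours had a median of -0.36, went from 0.18 to 0.49. With this removal limma called 8 of the 42 genes higher and 0 lower, and 0 were lower at an unadjusted p under 0.05. Over all genes tested, 25.2% were called with this removal, 1350 higher and 1524 lower. Kept were 5 of the 10 original calls, namely Mcm6, Orc1, Mcm10, Gins1 and Rfc2. Their log2 fold changes were 0.32, 0.60, 0.46, 0.64 and 0.75 with the removal, and 0.49, 0.78, 0.61, 0.56 and 0.68 without it.

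**Figure D4:**
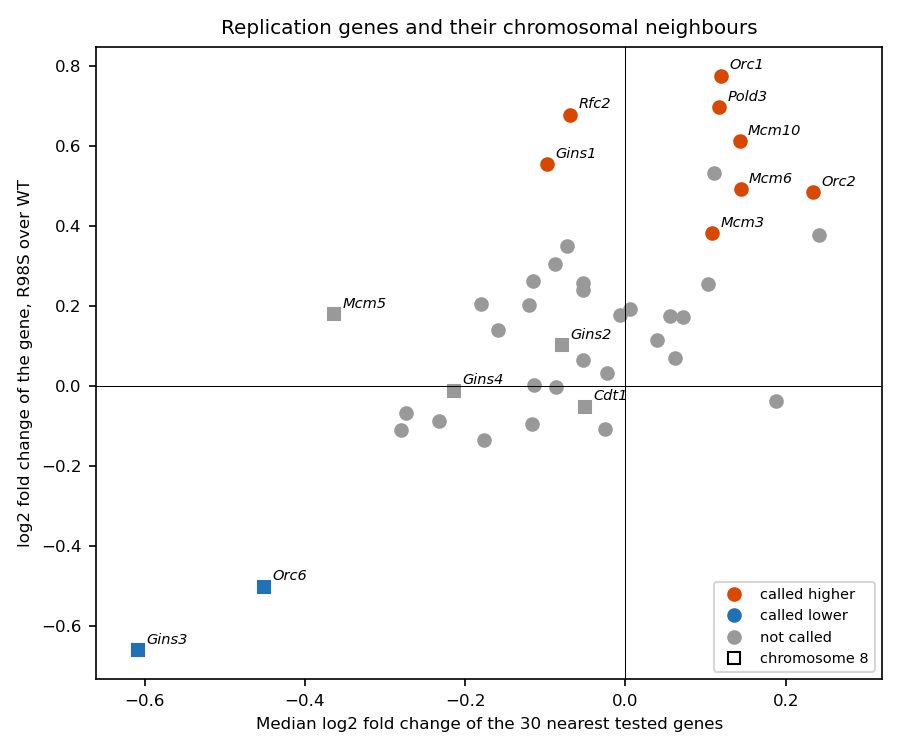
Log2 fold change of each replication gene (vertical axis) against the median log2 fold change of its 30 nearest tested genes on the chromosome (horizontal axis), both R98S over WT; squares mark the 6 genes on chromosome 8. Gins3 and Orc6 sit at the lower left, with neighbours at -0.61 and -0.45. Of the genes called higher, Mcm3, Mcm6, Orc1, Orc2, Mcm10 and Pold3 had neighbours above 0, at 0.11 to 0.23. Rfc2 and Gins1 had neighbours below 0.

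Of the 9 primase and polymerase genes, all had log2 fold changes above 0 and 1 was called. Pola1 (chromosome X, 93304767 to 93632155, minus strand), the catalytic subunit of polymerase alpha, had the highest counts, with 4151, 4324 and 4915 in the WT and 5655, 4069 and 5127 in the R98S clones. R98S clone 13 was the lowest of all 6 clones, and the groups overlapped (log2 fold change 0.14, SE 0.14, adjusted p = 0.532 in limma). Pold3 (chromosome 7, 100082111 to 100121565, minus strand), an accessory subunit of polymerase delta, had 1894, 1906 and 2229 in the WT clones and 2924, 2343 and 5014 in the R98S clones. Means were 2010 ± 190 and 3427 ± 1404 (SD, n = 3), and the log2 fold change was 0.70 (SE 0.25, adjusted p = 0.0981 in limma). R98S clone 35 alone set much of this difference, and without it the log2 fold change was 0.39 (adjusted p = 0.142 in limma). The call was also lost without WT clone 28, 29 or 36 or R98S clone 11, at log2 fold changes of 0.66, 0.66, 0.77 and 0.77 (limma adjusted p between 0.123 and 0.224), and with the shift of neighbours removed (0.47, adjusted p = 0.253 in limma).

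The remaining polymerase genes were not called. The primase subunits Prim1 and Prim2 had log2 fold changes of 0.35 and 0.38 (adjusted p = 0.231 and 0.121 in limma), and for Prim1 the WT clones had 1366, 1301 and 2061 counts and the R98S clones 2164, 1760 and 1994. WT clone 36 again lay within the R98S range. The log2 fold change was 0.21 for Pold1, the catalytic subunit of polymerase delta, and 0.18 for Pold2, whose R98S clones (1235, 1476 and 1278) were all above the WT clones (1142, 1164 and 1215). Pole and Pole2 of polymerase epsilon had 0.069 and 0.25, and Pola2 had 0.0037. Pole2 shares 245 exon bases with Gm49384 on its own strand, so its count is uncertain.

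The sliding clamp and its loader gave 1 call in 6 genes. Pcna (chromosome 2, 132249162 to 132253314, minus strand) had 4236, 4029 and 4980 counts in the WT clones, compared with 4719, 5224 and 4936 in the R98S clones. The groups overlapped only through WT clone 36 (log2 fold change 0.17, SE 0.11, adjusted p = 0.329 in limma). Pcna-ps2, a pseudogene by its name, had between 1345 and 1919 counts. Its sequence was not compared with that of Pcna. Whether reads of Pcna were assigned to it, or lost by the mapping quality filter, was not tested. Rfc2 (chromosome 5, 134581366 to 134601805, plus strand), a small subunit of the loader, had 1906, 2014 and 3031 in the WT and 3127, 3786 and 4032 in the R98S clones. WT clone 36 came close to the lowest R98S clone without reaching it. Means were 2317 ± 621 and 3648 ± 468 (SD, n = 3), and the log2 fold change was 0.68 (SE 0.19, adjusted p = 0.0469 in limma). The other 4 loader genes, Rfc1, Rfc3, Rfc4 and Rfc5, had log2 fold changes between -0.096 and 0.18 and were not called. Rfc2 lost its call without WT clone 28 (log2 fold change 0.55, adjusted p = 0.153) or 29 (0.59, 0.14) or R98S clone 35 (0.60, 0.133 in limma). It shares 952 exon bases with Lat2 on the opposite strand, whose counts were far lower (32.8 to 219.3) with a ratio of 2.42.

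With all 6 clones, the 7 genes that complete the fork were not called by limma, edgeR or DESeq2, and 0 of them had an unadjusted p under 0.05 in limma. Without WT clone 36, limma called Lig1 and Chaf1b higher (adjusted p = 0.0748 and 0.0792). Lig1 (chromosome 7, 13277283 to 13311433, plus strand), the ligase of lagging strand fragments, had 3079, 3177 and 4438 in the WT and 3724, 4100 and 4334 in the R98S clones, and WT clone 36 was the highest of all 6 (log2 fold change 0.20, SE 0.15, adjusted p = 0.403 in limma). The flap nuclease gene Fen1 had the lowest counts of the 42 genes, 79.9 to 146.2. Per kilobase of mRNA, WT cells had 39.9 of Fen1 and 1123 of Lig1. Of its 2422 exon bases Fen1 shares 1909 with the antisense gene Gm10143, which itself had at most 2.15 counts. Whether counting used the strand was not stated, so the count of Fen1 is uncertain and need not show its expression. Rpa1 (chromosome 11, 75298166 to 75348324, minus strand), the large subunit of the single-strand binding protein, had 3531, 3367 and 4408 in the WT and 3837, 4950 and 4111 in the R98S clones. Its ranges overlapped (log2 fold change 0.19, SE 0.14, adjusted p = 0.396 in limma), and Rpa2 and Rpa3 had 0.064 and -0.0027. Chaf1a (chromosome 17, 56040439 to 56072289, plus strand), the large subunit of the factor that deposits histones behind the fork, had 2365, 2434 and 3138 in the WT and 2724, 2095 and 2521 in the R98S clones. WT clone 36 was the highest (log2 fold change -0.11, SE 0.15, adjusted p = 0.653 in limma), and Chaf1b, its partner, had 0.26. Chaf1a shares 4648 exon bases with Ubxn6 on the opposite strand.

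WT clone 36 stood apart from the other WT clones for this group of genes. The study excluded another library of this clone, total RNA matched to polysome profiling, since it grouped with the R98S mutants in principal component analysis. It was the highest WT clone in 40 of the 42 genes (95.2%), with Orc2 and Rpa3 as the exceptions, compared with 36.5% of all genes tested. Its level lay a median of 0.32 on the log2 scale above the mean of WT clones 28 and 29, whereas those clones differed from each other by a median of 0.064. In 15 genes it was the highest of all 6 clones. Of all reads, the 42 genes took 0.436%, 0.417% and 0.543% in the WT clones and 0.537%, 0.515% and 0.565% in the R98S clones, in numerical order. A list of 18 mitosis genes, which mark dividing cells, was highest in WT clone 36 among the WT clones for all 18 and among all clones for 14, with a median of 0.45 above the other WT clones. For the E2F, RB and MuvB regulators the median was 0.44 and for the deoxynucleotide genes 0.30. Whether the share of dividing cells had a part in these levels was not tested.

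**Figure D5:**
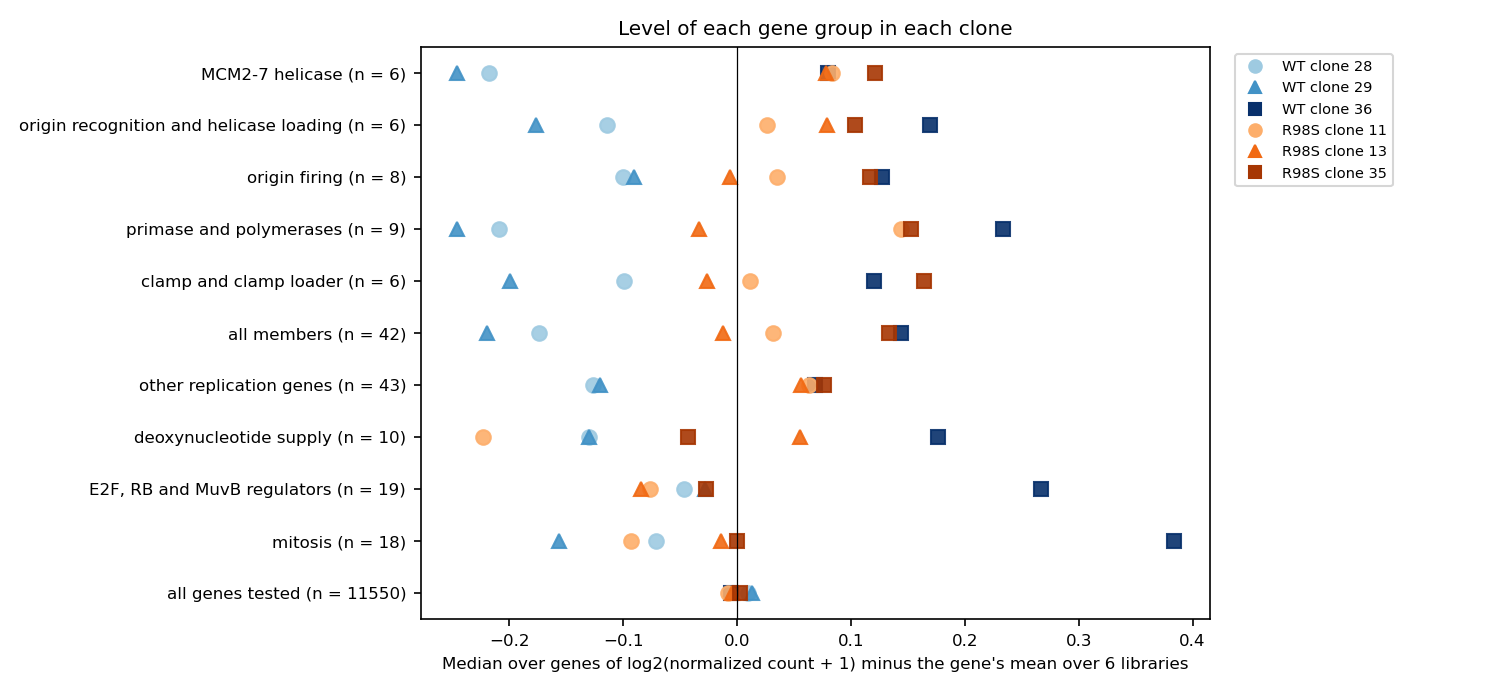
Median over the genes of each group of log2(normalized count + 1) minus the gene's mean over the 6 clones, for each clone. For all 42 members, WT clones 28 and 29 lie at -0.17 and -0.22, WT clone 36 at 0.14 and the R98S clones between -0.012 and 0.13; for mitosis genes WT clone 36 lies apart from all others.

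Without WT clone 36, 11 of the 42 were called higher (26.2%) and 2 lower (4.76%), compared with 9.6% and 12.2% over all genes tested. As this was the highest WT clone in 40 of these genes, its omission raised 41 of the 42 log2 fold changes. More higher calls were thus built into this omission, and it does not test the direction of the group. Of the log2 fold changes 38 were above 0, and the median was 0.25. Of the original 10 calls, 8 were kept (limma). Orc1 then stood at 1.04 (adjusted p = 0.00618), Rfc2 at 0.89 (0.0116), Mcm10 at 0.75 (0.0128), Gins1 at 0.70 (0.0342), Mcm6 at 0.55 (0.0538) and Mcm3 at 0.46 (0.0344). Orc6 and Gins3 remained lower at -0.45 (0.0604) and -0.55 (0.0649). Orc2 (0.47, adjusted p = 0.119 in limma) and Pold3 (0.77, adjusted p = 0.123 in limma) were no longer called. Cdc6 (0.74, 0.0252), Prim1 (0.56, 0.0362), Lig1 (0.37, 0.0748), Chaf1b (0.41, 0.0792) and Mcm4 (0.37, 0.0796) were called in addition (log2 fold change and limma adjusted p). Over all alternatives the adjusted p of these 5 reached 0.284, 0.521, 0.752, 0.644 and 0.549. The numbers were 9 and 2 without R98S clone 13, with 12.5% higher and 15.5% lower over all genes, and smaller without each of the other clones. Without WT clone 28, limma called 0 of the 42 genes higher (6 at an unadjusted p under 0.05) and 1 lower, where 5.07% and 6.38% of all genes were called. The numbers were 1 and 2 without WT clone 29 (5.66% and 6.97% of all genes), 2 and 2 without R98S clone 11 (6.16% and 7.56%), and 5 and 2 without R98S clone 35 (8.03% and 9.36%). With these 4 omissions the calls fell over all genes as well as among the 42. The direction of the called genes did not change under any of these omissions.

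Other genes of the same processes were compared by lists that held none of the 42. Of 43 further replication genes tested, 6 were called higher and 2 lower (18.6%, beside 23.9% of all genes), with a median log2 fold change of 0.12. The call with the smallest adjusted p was Pold4, the smallest subunit of polymerase delta, which had 983.1, 996.2 and 941.7 normalized counts in the WT clones and 310.6, 592.0 and 441.3 in the R98S clones. It fell by 1.17 on the log2 scale (SE 0.22, adjusted p = 0.0136 in limma), unlike Pold3 of the same enzyme. Pole3, a small subunit of polymerase epsilon, rose by 0.52 (SE 0.11, adjusted p = 0.0236), Orc3 of the origin recognition complex by 0.42 (SE 0.099, adjusted p = 0.0287) and topoisomerase I, encoded by Top1, by 0.38 (SE 0.095, adjusted p = 0.0336 in limma). Without WT clone 36, 8 of these genes were called higher (18.6%) and 2 lower (4.65%), beside 9.6% and 12.2% of all genes. That clone was the highest WT clone in 32 of the 43, so more higher calls were built into the omission.

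Of the 19 E2F, RB and MuvB regulators, which switch cell cycle genes on and off, 2 were called (10.5%), both lower. Over all genes tested 23.9% were called, 13.1% of them lower and 10.7% higher as shares of all genes. Among the 19, 2 had an unadjusted p under 0.05 (limma). E2f2 had 1273, 801.7 and 1533 counts in the WT and 507.6, 561.3 and 430.2 in the R98S clones (log2 fold change -1.22, SE 0.24, adjusted p = 0.0148 in limma), and Foxm1, a driver of mitotic genes, fell by 0.47 (SE 0.17, adjusted p = 0.0936 in limma). The activator E2f1 was not called (0.33, adjusted p = 0.297 in limma). Without WT clone 36, 2 of the 19 were called higher, E2f1 (0.54, adjusted p = 0.0591) and E2f6 (0.48, adjusted p = 0.0762), and E2f2 alone was called lower (-1.02, adjusted p = 0.0318 in limma), while Foxm1 was at -0.32 (adjusted p = 0.197 in limma). The share called higher was then 10.5%, beside 9.6% of all genes. WT clone 36 was the highest WT clone in 14 of the 19, in 7 of the 10 deoxynucleotide genes below and in all 18 mitosis genes. More higher calls were thus built into its omission for these lists too. Of 10 genes of deoxynucleotide supply, 2 were called (20%, beside 23.9% of all genes). Dctpp1, a pyrophosphatase that clears dCTP and its analogs, had 904.2, 955.4 and 905.7 counts in the WT and 2209, 1882 and 1891 in the R98S clones (log2 fold change 1.11, SE 0.11, adjusted p = 0.00109 in limma). Rrm2b, an alternative small subunit of ribonucleotide reductase, fell by 0.46 (SE 0.15, adjusted p = 0.0785 in limma), and the other 8 were not called. Without WT clone 36, Rrm1 was called higher beside Dctpp1 (0.34, adjusted p = 0.0728 in limma), and Rrm2b was again lower (-0.56, adjusted p = 0.0604 in limma). Of the 18 mitosis genes, 2 were called (11.1%, beside 23.9% of all genes). Plk1 was called higher (0.44, SE 0.13, adjusted p = 0.0497 in limma) and Ccnb2 lower (-0.68, SE 0.19, adjusted p = 0.0468 in limma). Of the 18, 14 had log2 fold changes below 0, with a median of -0.14. Without WT clone 36, Cdc20 was called higher beside Plk1 (0.41, adjusted p = 0.0733 in limma) and Ccnb2 was again lower (-0.50, adjusted p = 0.0882 in limma). The median was then 0.045 and 7 of the 18 lay below 0, so the direction of the mitosis list rested on that clone. The median of the 42 replication genes was above 0 with and without it. As the omission raised 41 of their 42 log2 fold changes, it could not test whether their direction depends on the WT clones used. Relative to WT clone 36 alone, the R98S mean lay at a median of -0.051 for the 42 genes and -0.45 for the mitosis genes.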

How the data were processed

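Polyadenylated RNA of 6 monoclonal Ba/F3 cultures was measured, 1 library per clone. The authors removed ribosomal and transfer RNA reads with Bowtie2, aligned to mm10 with TopHat and counted reads on exons. They kept primary alignments whose mapping quality was at least 10. HTSeq is named in the submitters' processing notes; the gene annotation and strand setting are not given in the sources used here. Deposited was a signal for each gene, the count divided by a DESeq2 size factor. All values (100%, within 0.001) were whole multiples of a step per library, which recovered the reads. In WT clone 36 the step was 1.0008, so near 1 that rounding could look alike. Counting error is part of the spread between clones, and for Gins2 and for Orc1 in R98S clones the spread was no larger than counting alone would give.

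Groups followed the labels. limma (3.58.1, R 4.3.3, intensity trend, two-sided) was fitted to log2(normalized count + 1) for genes with a mean of at least 10, with Benjamini-Hochberg adjustment over 11550 genes and a threshold of 0.1. Fold changes on this scale understate those of low genes. The script was tested on simulated data. Alternatives were pseudocounts of 0.5 and 5, no filter or a minimum mean of 50, equal totals or upper quartiles, no trend, a threshold of 0.05, edgeR (4.0.16) and DESeq2 (1.42.0) on the recovered reads, subtraction, in each library, of the median deviation of a gene's 30 nearest tested neighbours, and leaving out each clone.

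The members and lists were chosen with earlier results of these data known. Full values are given for called members and for the member with the highest counts in each role. Of each other list, up to 4 called genes with the smallest adjusted p are named. Rpl10 is named whatever its value. Further genes in the text were picked with their values in view. Of the deoxynucleotide list, a gene called without WT clone 36 is not reported here. Positions and lengths come from GENCODE vM21 (GRCm38), matched by symbol, with the length of 1 principal transcript per gene. Dbf4b had no row, and Pclaf was matched by a synonym.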

Additional observations from a re-analysis of the deposited data

How the results depend on the processing

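No paired analysis was possible because the clone numbers of the genotypes do not match. The number of genes called (2755) lay between 2265 (no filter) and 3105 (DESeq2) under the alternatives that kept all clones at the threshold of 0.1, with 2746 in edgeR and 2788 after upper quartile scaling, where 1453 were higher and 1335 lower instead of 1241 and 1514. It was 1722 at a threshold of 0.05 and 1327 to 3219 with 1 clone left out. Of the 42 replication genes, 8 were called higher and 2 lower, and 8 and 2 again in edgeR and 10 and 2 in DESeq2. At 0.05 the numbers were 4 and 2, with the regional shift removed 8 and 0, and with 1 clone left out 0 to 11 higher and 1 to 2 lower. The members' median log2 fold change stayed between 0.11 and 0.25. In 731 comparisons of single genes, 633 kept direction and side of the threshold, 41 lost the call, 15 gained it and 42 changed sign.

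All sign changes were in genes not called (adjusted p of at least 0.284), and the cause was not tested. With the regional shift removed, the log2 fold change was 0.031 for Mcm7, 0.13 for Cdc7, 0.16 for Gins4, 0.21 for Rfc1, 0.070 for Rpa3, 0.17 for Chaf1a and 0.035 for Rpl10. Gins4 was at 0.0095, 0.031 and 0.0027 and Rpa3 at 0.018, 0.039 and 0.019 with equal totals, upper quartile scaling and edgeR. Gmnn was at 0.0037 with upper quartile scaling, and in DESeq2 Rpa3 was at 0.014 and Pola2 at -0.0028. With 1 clone left out, the values ranged from -0.12 to 0.029 for Cdt1, -0.11 to 0.049 for Gmnn, -0.21 to 0.11 for Cdc7, -0.025 to 0.11 for Cdc45, -0.11 to 0.082 for Gins4, -0.12 to 0.15 for Pola2, -0.018 to 0.23 for Pole, -0.11 to 0.021 for Rfc1, -0.19 to 0.038 for Rfc3, -0.019 to 0.18 for Rpa2, -0.10 to 0.11 for Rpa3, -0.19 to 0.020 for Chaf1a and -0.29 to 0.13 for Rpl10. Counting error weighs most on Fen1, the member with the fewest reads, whose count is also uncertain through its overlap with Gm10143.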
